A study of Mus musculus with 2 samples.

Results

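The genes described here encode mouse histone modifying enzymes: lysine demethylases, lysine methyltransferases, deacetylases, sirtuins and lysine acetyltransferases. They were chosen by a rule on gene symbols, from the Kdm, Kmt, Setd, Ezh, Ehmt, Hdac, Sirt and Kat families with Ep300 and Crebbp. The rule uses no measured value. The rule gave 61 protein-coding genes among the 55536 genes of the annotation. Their RNA was measured in bone marrow derived macrophages of C57BL/6J mice, treated for 10 min with Lipid A at 100 ng/ml. Lipid A is the portion of bacterial lipopolysaccharide that activates Toll-like receptor 4. Total RNA of a nuclear fraction, named nucleoplasmic in one label field and nucleus in another, was sequenced after ribosomal RNA depletion. The 2 libraries form 1 group: replicate 1 was made from 1 µg and replicate 2 from 500 ng of RNA, and both carry 1 donor identifier with separate biosamples. Sex and age were not collected. Whether the replicates came from separate animals is not stated, so the spread between them may be partly technical. Untreated macrophages and later times are not analysed here, so the levels describe 1 state and measure no response.

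Acetyltransferases place acetyl groups on histone lysines, and deacetylases and sirtuins remove them, the sirtuins with NAD+ as a cosubstrate. Methyltransferases and demethylases add and remove methyl groups at particular lysines, of which H3K4 methylation is found at active promoters and enhancers, H3K36 methylation in transcribed gene bodies, and H3K9, H3K27 and H4K20 methylation largely in repressed chromatin. In macrophages some of these enzymes act at enhancers and promoters of inflammatory genes, and Kdm6b is known as a gene that bacterial products induce.

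The libraries held 19153437 counts in replicate 1 and 11622308 in replicate 2 on annotated genes. All 10 macrophage markers were detected, with summed levels of 3732 and 2289 TPM, a level scaled to the library total and corrected for transcript length, and the nuclear RNAs Malat1, Neat1 and Rn7sk were among the detected genes. Of the 7 neutrophil markers 1 was detected, and none of the B cell, T cell, erythroid, fibroblast, mast cell and endothelial markers was. The summed neutrophil level was 5.50 and 4.28 TPM. The immediate early genes differed strongly between the libraries. Replicate 1 had 174.6 TPM of Fos and 42.9 TPM of Egr1, and replicate 2 had 61.3 and 6.43 TPM.

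Retained intron transcripts made up a large share of the members' length-corrected RNA, and a few of these sequences show what the term means here. In the annotation a retained intron transcript keeps, as exon, sequence that a coding transcript of the same gene splices out. In total nuclear RNA the levels given to such models cannot be told apart from RNA that is not yet spliced. The following are read 5′ to 3′ from the GENCODE M21 transcript sequences, on mm10, with flanking coding exon bases in lower case and bases of the intron in capitals. Sirt7-205 and Ehmt2-205, the leading transcripts of these genes by TPM, keep short introns whole. The Sirt7 introns of 142 and 73 bases lie at chr11:120620485-120620666 and chr11:120620864-120620976 with their flanks, on the minus strand, and the Ehmt2 intron of 100 bases at chr17:34911459-34911598 on the plus strand.
Sirt7-205, 142-base intron: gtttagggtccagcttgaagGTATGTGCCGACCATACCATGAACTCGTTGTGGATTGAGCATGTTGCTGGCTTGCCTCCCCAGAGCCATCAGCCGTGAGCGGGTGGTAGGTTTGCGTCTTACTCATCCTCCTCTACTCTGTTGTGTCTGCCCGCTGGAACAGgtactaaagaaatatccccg
Sirt7-205, 73-base intron: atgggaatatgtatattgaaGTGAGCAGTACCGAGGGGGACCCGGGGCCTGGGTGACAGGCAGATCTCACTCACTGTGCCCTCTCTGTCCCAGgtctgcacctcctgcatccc
Ehmt2-205, 100-base intron: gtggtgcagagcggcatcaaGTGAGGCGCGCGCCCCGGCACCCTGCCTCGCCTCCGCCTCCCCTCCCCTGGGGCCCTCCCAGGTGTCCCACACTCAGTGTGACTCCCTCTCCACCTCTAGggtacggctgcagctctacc
All 3 introns start with GT and end with AG. Their GC content was 55.6%, 65.8% and 73.0% in the order printed.

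Some other retained intron transcripts run from a coding exon into only the first part of a longer intron. Of these, 6 are shown as 30 exon and 30 intron bases around the 5′ splice site, because they belong to the demethylase, methyltransferase, acetyltransferase and sirtuin genes whose shares are described further on. The windows are chr4:136553766-136553825 (minus strand) for Kdm1a, chr14:21517469-21517528 (plus) for Kat6b, chr5:115482594-115482653 (minus) for Sirt4, chr15:81623496-81623555 (plus) for Ep300, chr5:25385615-25385674 (minus) for Kmt2c and chr9:110569782-110569841 (plus) for Setd2.
Kdm1a-204: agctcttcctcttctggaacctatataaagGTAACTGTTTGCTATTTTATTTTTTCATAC
Kat6b-213: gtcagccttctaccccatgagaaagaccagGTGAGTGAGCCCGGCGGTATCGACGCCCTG
Sirt4-203: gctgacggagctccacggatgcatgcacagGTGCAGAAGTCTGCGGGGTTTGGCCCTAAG
Ep300-205: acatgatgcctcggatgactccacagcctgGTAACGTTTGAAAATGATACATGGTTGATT
Kmt2c-203: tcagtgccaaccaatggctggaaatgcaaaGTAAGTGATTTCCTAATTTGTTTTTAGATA
Setd2-207: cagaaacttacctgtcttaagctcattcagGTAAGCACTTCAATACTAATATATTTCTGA
Among the most abundant retained intron transcripts, 37 boundaries at a 5′ splice site or whole introns of at most 200 bases were found in 30 members. Of these, 36 start with GT. Some of the boundaries lead into a longer intron that is kept whole, such as one of 989 bases in Ezh2-207. In the 6 windows above, the G and C content of the intron bases ran from 23.3% in Kdm1a and Kmt2c to 70.0% in Kat6b.

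Nearly all of the enzyme genes were detected. With a level of at least 1 TPM required in each library, 59 of 61 passed, against 23.6% of all annotated genes and 46% of protein-coding genes. In both libraries 42 of 61 reached 10 TPM, a level for which no share over other genes is given. The median member stood at 17.6 ± 1.04 TPM (SD, n = 2 for this and all following means), against 10.4 ± 0.651 TPM for detected protein-coding genes. Together the members summed to 1335 ± 44.3 TPM, or 0.443% ± 0.0295 of protein-coding TPM. They drew 5.31 to 12121 expected counts each in a library, the reads the deposited tables assign to a gene. Since these are bulk samples, fewer cells with a transcript and less RNA per cell cannot be told apart.

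**Figure D1:**
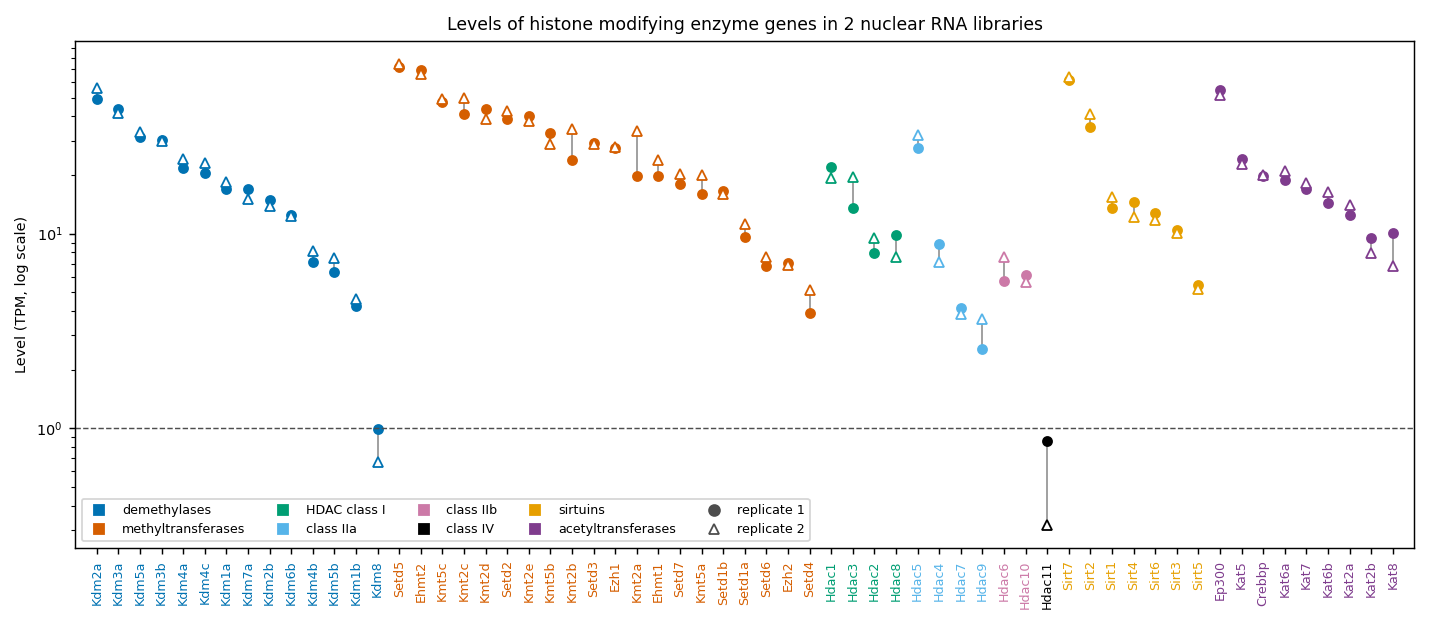
Level of each histone modifying enzyme gene in TPM (log axis) in replicate 1 (filled circles) and replicate 2 (open triangles), grouped and coloured by enzyme class and ordered by mean within a class. The dashed line marks 1 TPM, and Kdm8 and Hdac11 are the members below it; Setd5, Ehmt2 and Sirt7 are highest.

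Among methyltransferases, all 20 genes were detected and the class had the highest median, 27.4 ± 2.20 TPM. Setd5, a SET domain protein, was the highest of the 61 genes: 71.6 TPM (5836 expected counts) in replicate 1 and 74.5 TPM (4258) in replicate 2. Ehmt2, the H3K9 methyltransferase also called G9a, followed at 68.97 TPM (3154) and 66.23 TPM (1882). The ranges of these genes did not overlap, but they lie within 10 TPM of each other in both libraries. These ranks were not all kept in the second deposited quantification, described further on. There Ehmt2 had 29.4 and 42.7 TPM, below Kdm2a with 36.0 and 53.8 TPM. Setd5 had 38.3 and 63.2 TPM there, and Kdm3b 56.6 and 37.6 TPM. Kmt5c, which trimethylates H4K20, stood at 47.6 TPM (1436) and 49.2 TPM (895). Ehmt1, which forms a complex with Ehmt2, was far lower than it at 21.8 ± 2.86 TPM.

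The H3K4 methyltransferases of the Kmt2 and Setd1 families spread over a wide range. Kmt2d, which acts at enhancers, drew the most counts of any member: 12121 in replicate 1 and 8529.8 in replicate 2, at 43.8 and 38.7 TPM. Its close relative Kmt2c had 45.5 ± 5.97 TPM and Kmt2e, a family member without clear methyltransferase activity, 39.0 ± 1.44 TPM, and the Kmt2d range overlapped both of theirs. Kmt2b, which acts at promoters, was below all 3 in both libraries, with 24.0 TPM (2598 counts) and 34.4 TPM (1813). Kmt2a, known from leukaemia translocations, had 19.9 TPM (6907.4) and 33.6 TPM (5570). Setd1b and Setd1a, catalytic subunits of the complexes that trimethylate H3K4 at promoters, were lower at 16.2 ± 0.403 and 10.4 ± 1.14 TPM. Setd1a shares 51.8% of its exonic bases with the same-strand gene Gm49388, which is listed at 0 in both libraries.

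The Kmt2a gap between the libraries was larger in TPM than in counts. Kmt2a-206, a coding model of 521 bases, was given 5.47 counts in replicate 1 and 43.2 in replicate 2, which is 0.83 and 9.69 TPM. The 16461-base model Kmt2a-201 stood at 15.6 and 21.4 TPM, from 5682.7 and 5030.8 counts. Both models were higher in replicate 2 on the TPM scale, and the short one by far the more.

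Polycomb methyltransferases for H3K27 differed from each other. Ezh1 had 27.7 TPM (1542 counts) in replicate 1 and 27.9 TPM (994) in replicate 2. Ezh2, the family member known for high expression in dividing cells, had 7.04 TPM (225) and 6.90 TPM (138). The Ezh1 level was above the Ezh2 level in both libraries by more than the spread of either. Both Ezh2 values were also below those of their complex partner Eed, at 37.5 ± 1.88 TPM.

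Setd2, the enzyme that trimethylates H3K36, stood at 40.9 ± 2.74 TPM, and the H4K20 enzyme Kmt5b at 30.9 ± 2.73 TPM. Kmt5a, which monomethylates H4K20, drew 708 counts in replicate 1 (16.0 TPM) and 598 in replicate 2 (19.9 TPM). Setd3, an actin histidine methyltransferase, and Setd7, which methylates histone and other proteins, had 29.1 ± 0.255 and 19.1 ± 1.63 TPM. Setd6, known to methylate the NF-kB subunit RelA, had 6.85 TPM (150) and 7.61 TPM (127), a range that contains both Ezh2 values. The lowest of the class was Setd4 with 3.89 TPM (108) and 5.15 TPM (59).

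Of the 14 demethylases, 13 were detected and the median was 16.8 ± 0.145 TPM. The H3K36 demethylase Kdm2a led with 49.3 TPM (4121 expected counts) in replicate 1 and 56.1 TPM (2828) in replicate 2. Kdm3a, an H3K9 demethylase, followed with 43.8 TPM (2137) and 41.5 TPM (1490), and the H3K4 demethylase Kdm5a with 31.5 TPM (3058.4) and 33.1 TPM (2051.9). These 3 genes kept their order in both libraries with no overlap. Next came Kdm3b, a relative of Kdm3a, at 30.1 and 29.8 TPM, and the H3K9 and H3K36 demethylases Kdm4a and Kdm4c at 22.9 ± 1.80 and 21.8 ± 1.79 TPM.

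Kdm6b, the H3K27 demethylase named above, stood in the lower part of its class. It had 12.5 TPM (1429 counts) in replicate 1 and 12.3 TPM (808) in replicate 2, values that differ less than those of Fos or Egr1 in the same libraries. Kdm6b shares 4.11% of its exonic bases with the opposite-strand gene Kdm6bos. Kdm1a, the flavin-dependent H3K4 demethylase of the CoREST complex, had 16.9 TPM (569) and 18.4 TPM (365). Its paralogue Kdm1b was at 4.25 TPM (407.4) and 4.62 TPM (247.7), below Kdm1a in both libraries.

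Among the others, Kdm7a, which acts on H3K9 and H3K27, had 16.9 TPM (3315.9) and 15.1 TPM (1821), and Kdm2b, a CpG island binding protein, 14.4 ± 0.728 TPM. Kdm4b and Kdm5b, relatives of Kdm4a and Kdm5a, were at 7.63 ± 0.686 and 6.95 ± 0.799 TPM. For Kdm4b the deposited posterior mean TPM was 46.7 and 60.4, far above these values. Kdm8, a Jumonji domain protein, fell short of detection with 0.99 TPM (48 counts) and 0.67 TPM (21).

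All 9 acetyltransferases were detected, with a median of 17.5 ± 0.926 TPM. Ep300, the enhancer coactivator p300, had 54.9 TPM (5686 expected counts) in replicate 1 and 51.6 TPM (3821) in replicate 2. Its paralogue Crebbp had 19.9 TPM (3684) and 20.1 TPM (2509), so Ep300 was above Crebbp in both libraries by more than their spread. Between them came Kat5, the catalytic subunit of the Tip60 complex, with 24.2 TPM (542) and 22.8 TPM (315.4), although 12.1% of its exonic bases are shared with Rnaseh2c on the opposite strand. In the second quantification Kat5 was below Crebbp in both libraries, with 11.8 and 14.3 TPM against 13.6 and 22.4 TPM.

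Kat6a, Kat7 and Kat6b, acetyltransferases of the MYST family, stood at 20.0 ± 1.44, 17.5 ± 0.926 and 15.4 ± 1.46 TPM. The Kat6b counts were 1502 in replicate 1 (14.4 TPM) and 1141 in replicate 2 (16.4 TPM). Kat2a, the acetyltransferase of the SAGA complex, had 13.3 ± 1.05 TPM. At the low end, its paralogue Kat2b had 9.51 TPM (919) and 7.94 TPM (510.0), and the H4K16 acetyltransferase Kat8 had 10.0 TPM (184) and 6.84 TPM (83). Kat2b and Kat8 overlapped.

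Class I deacetylases had a median of 13.0 ± 1.90 TPM over 4 genes. Of these, Hdac1, Hdac2 and Hdac3 are the enzymes of the Sin3, NuRD, CoREST and NCoR complexes. Hdac1 stood at 22.1 TPM (573 expected counts) in replicate 1 and 19.2 TPM (360.7) in replicate 2. Its paralogue Hdac2 was lower in both, at 7.92 TPM (295) and 9.54 TPM (206). Hdac3, the catalytic subunit of NCoR and SMRT complexes, had 13.6 TPM (520) and 19.4 TPM (429), and so overlapped Hdac1. Hdac8 had 9.85 TPM (351) and 7.59 TPM (198), a range that contains both Hdac2 values.

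Class IIa deacetylases move between nucleus and cytoplasm and bind MEF2 factors. Hdac5 was the highest deacetylase outside the sirtuins, at 27.5 TPM (1189) and 32.2 TPM (734). The others were clearly lower in both libraries: Hdac4 at 8.80 TPM (674) and 7.16 TPM (378.4), Hdac7 at 4.14 TPM (187) and 3.86 TPM (121), and Hdac9 at 2.55 TPM (198) and 3.63 TPM (170). Hdac4 shares 22.4% of its exonic bases with the opposite-strand gene Gm26720, listed at 0 and 0.14 TPM.

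The class IIb genes were low as well. Hdac6, a tubulin deacetylase, had 5.71 TPM (384) and 7.62 TPM (281), and Hdac10 had 6.12 TPM (261) and 5.63 TPM (153). Hdac11, the single class IV deacetylase, was the lowest of the 61 genes by TPM, with 0.86 TPM (24.2 counts) in replicate 1 and 0.32 TPM (5.31) in replicate 2. The posterior mean TPM deposited in the same tables was higher, 3.67 and 4.07, above that of Kdm8 (1.11 and 0.81). Hdac11 shares 15.4% of its exonic bases with Gm44002 on the opposite strand.

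All 7 sirtuins were detected, and the nuclear members did not stand together. Sirt7, a nucleolar H3K18 deacetylase, led by a wide margin with 61.5 TPM (2130 expected counts) and 63.7 TPM (1424). Sirt2, largely cytoplasmic, followed with 35.2 TPM (1105) and 41.2 TPM (871). This lead was not kept in the second deposited quantification, described further on. There Sirt2 had 25.2 and 42.1 TPM, above Sirt7 with 24.8 and 38.3 TPM. Sirt1, a nuclear deacetylase of histones and of NF-kB, had 13.6 TPM (792) and 15.5 TPM (616), and the chromatin-bound Sirt6 had 12.2 ± 0.679 TPM.

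Of the mitochondrial sirtuins, Sirt4 had 14.5 TPM (187) and 12.1 TPM (90), overlapping both Sirt1 and Sirt6. The lowest of the class were Sirt3, with 10.4 TPM (364.3) and 10.1 TPM (240.0), and Sirt5, a desuccinylase, with 5.42 TPM (192) and 5.19 TPM (101). No gene of this class fell below 5 TPM.

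Like most genes, the enzyme genes stayed within 2-fold between the libraries. After scaling the whole table, 59 members had a mean of at least 50 counts, and 0 of these 59 were more than 2-fold apart, against 2.09% of 11656 genes. They leaned to replicate 2: 45 were higher there and 14 in replicate 1, with a median log2 ratio (replicate 1 over replicate 2) of -0.16, where the median gene stood at -0.00 and 50.2% of genes were higher in replicate 2. The middle 50% of members lay between -0.28 and -0.02, against -0.19 to 0.22 for all genes. In the same libraries 9 of 10 macrophage markers were higher in replicate 1, with a median of 0.57, and Tnf, Nfkbia, Egr1 and Fos stood at 1.99, 1.93, 2.69 and 1.62. The part that these markers, or the different starting amounts, have in the members' difference was not tested, and 1 library on each side allows no test.

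**Figure D2:**
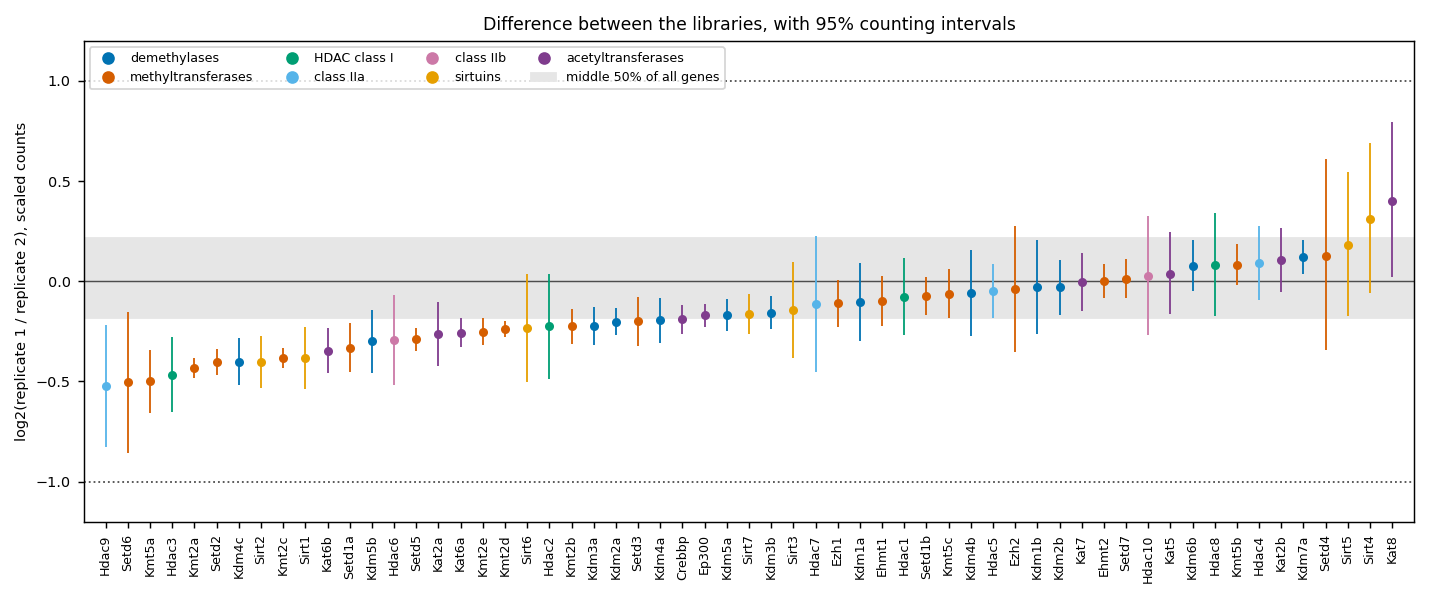
log2 ratio of scaled counts, replicate 1 over replicate 2, for the 59 enzyme genes with a mean of at least 50 counts, with exact 95% counting intervals as bars and colours for class. Grey marks the middle 50% of all genes and dotted lines 2-fold; no member reaches them, and most members lie below 0.

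Counting error alone did not cover every difference. The 95% counting interval (Clopper-Pearson) lay below 0 for 29 members, above 0 for 2 and across 0 for 28. Over all 11656 genes it lay below 0 for 23% and above 0 for 22.7%. The intervals narrow as counts rise, and genes were not matched on counts. Such an interval covers counting error alone, because reads that carry no molecular identifier can be copies of 1 molecule. Farthest toward replicate 2 were Hdac9 at -0.52 (interval -0.83 to -0.22), Kmt5a and Setd6 at -0.50 each, Hdac3 at -0.47 and Kmt2a at -0.43. Farthest toward replicate 1 were Kat8 at 0.40 (0.02 to 0.80), Sirt4 at 0.31, Sirt5 at 0.18, Setd4 at 0.13 and Kdm7a at 0.12 (0.04 to 0.20). The Sirt4, Sirt5 and Setd4 intervals include 0. By class, the median ratio was lowest in the methyltransferases (-0.21) and highest in the class IIa deacetylases (-0.08), and Kdm6b stood at 0.08.

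The transcript tables divide each gene among annotated models, 551 for the members: 251 coding, 170 retained intron, 85 processed transcript and 45 nonsense-mediated decay. Coding transcripts held 56.1% ± 0.574 of the members' TPM and retained intron transcripts 33.0% ± 1.07, against 19.7% ± 0.223 retained intron over all protein-coding genes. Processed transcripts held 8.07% ± 0.661 and decay targets 2.84% ± 0.166. The size of the retained intron share depended on the scale. Of the members' expected counts it was 14.5% ± 0.624, and of all protein-coding genes' counts 15.2% ± 0.489, so the excess over other genes was seen in TPM and not in counts. Retained intron models of these genes have a median length of 855 bases and coding models 2723 bases, and TPM divides by length. Model lengths for other genes are not given. On both scales the other genes include some without a retained intron model. Such a model exists for 48 of 61 members, and for 6434 of 10402 protein-coding genes whose mean level reached 1 TPM. The part that this has in the TPM excess was not tested.

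**Figure D3:**
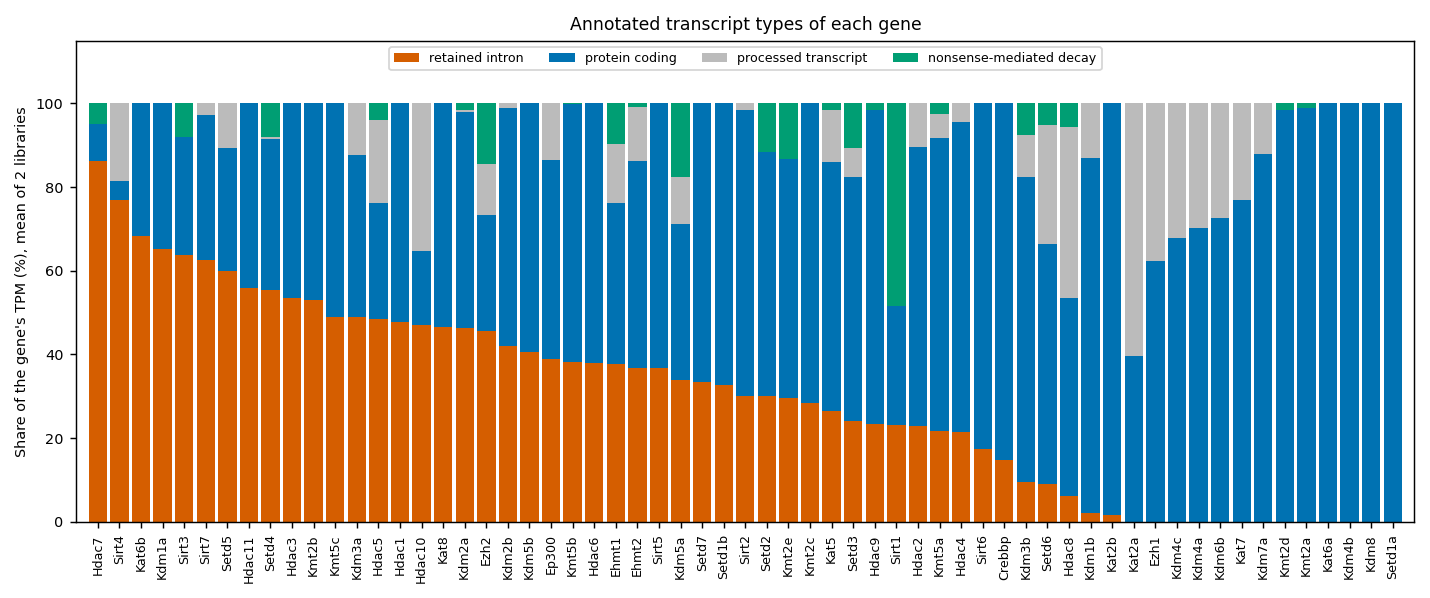
Share of each gene's TPM (percent, mean of 2 libraries) in retained intron, protein-coding, processed and nonsense-mediated decay transcripts, with genes ordered by the retained intron share. It runs from Hdac7 on the left to 13 genes with no retained intron model on the right.

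A retained intron transcript was the most abundant transcript of 12 members, against 12.2% of 10402 protein-coding genes whose mean level reached 1 TPM. Retained intron models exist for 48 members, so that 25% of those were led by one, against 19.7% of the 6434 such genes with a model. The 12 were Ehmt1, Ehmt2, Ezh2, Setd5, Hdac7, Hdac10, Hdac11, Kat6b, Kdm1a, Sirt3, Sirt4 and Sirt7, of which Hdac11 lies below 1 TPM. A coding model led in 46 members, in some of them a short one, such as Setd4-208 with 402 bases and Hdac4-205 with 849 bases. Sirt1 was led by a decay target in both libraries, but by another transcript in the second quantification. Kat2a and Hdac5 were led by a processed transcript in replicate 2 and on average, but not in replicate 1: Hdac5-208 had 0 and 10.6 TPM, and Kat2a-204 had 4.79 and 8.11 TPM against 5.43 and 1.64 TPM for the coding Kat2a-201. In 45 members the same transcript led in both libraries. With each library taken alone, 9 members had a retained intron leader in both. For coding leaders and for leaders kept in both libraries, no share over other genes is given. Of the 12, 8 were also led by one when expected counts were used and 7 in the second quantification.

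In 11 of 61 members retained intron transcripts held more than 50% of TPM, against 13.8% of protein-coding genes that reached 1 TPM. Taken over the 48 members with such a model, the 11 are close to the share of such genes, 22.3%. The second quantification gave 17 members and expected counts gave 8. Sirtuins had the highest share of any class with more than 4 members, at 47.9% ± 2.22, and acetyltransferases the lowest at 24.7% ± 2.68. Among genes with at least 5 TPM, Sirt4 led with 77.0% of TPM in retained intron transcripts, followed by Kat6b with 68.3%, Kdm1a with 65.3%, Sirt3 with 63.8%, Sirt7 with 62.6%, Setd5 with 60.03%, Hdac3 with 53.5% and Kmt2b with 53.0%. Below 5 TPM, Hdac7 reached 86.3%, Hdac11 55.9% and Setd4 55.4%. For Sirt7, Sirt3, Sirt4, Kat6b, Setd4, Setd5 and Hdac7 the retained intron transcripts also held more than 50% of expected counts. Kmt2b held 6.19% of counts there and Kdm1a 33.2%.

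**Figure D4:**
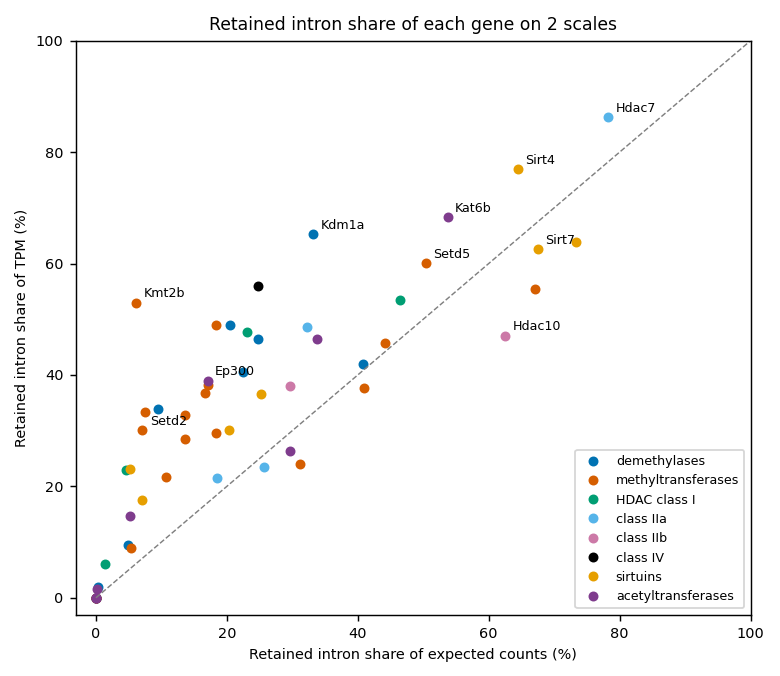
Retained intron share of each enzyme gene's TPM (vertical, percent) against the share of its expected counts (horizontal, percent), means of 2 libraries, with colours for class and a dashed line of equality. Most genes lie above the line; Kmt2b is farthest from it, and Hdac10, Sirt7 and Sirt3 are among those below.

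These shares were the sum of several models in these genes: Setd5-209 held 23.9% of Setd5 TPM, Kdm1a-204 23.9% of Kdm1a, Sirt4-203 33.9% of Sirt4 and Kat6b-213 32.9% of Kat6b. Sirt7-205, whose 2 whole introns are printed above, had 20.9 TPM in replicate 1 and 24.3 TPM in replicate 2, against 20.3 and 18.4 TPM for the coding Sirt7-201. Ehmt2-205, with the printed 100-base intron, had 15.01 and 18.01 TPM, and the coding model Ehmt2-204 had 12.3 and 9.75 TPM. In both genes this retained intron model was above this coding model in TPM in both libraries. By expected counts Ehmt2-204 was the higher, with 1008.2 and 517.3 against 382.1 and 298.3 for Ehmt2-205. All coding models of Ehmt2 together held 49.5% of its TPM and 79.4% of its counts, and retained intron models 36.7% and 16.7%. In Sirt7 retained intron models held the larger part on both scales, 62.6% of TPM and 67.5% of counts.

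In Kdm1a the order of models changed between libraries: Kdm1a-204 had 3.34 and 5.10 TPM, and the coding Kdm1a-202 had 3.48 and 3.43 TPM. Kat6b-213, which runs past the printed splice site, had 4.59 and 5.53 TPM, above the coding Kat6b-207 with 2.22 and 2.09 TPM. Setd5-209 had 18.7 and 16.2 TPM against 13.4 and 19.8 TPM for the coding Setd5-202, so these crossed as well.

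In Ep300 and Setd2 a coding transcript stood above the leading retained intron one. Ep300-205 had 10.5 and 9.37 TPM against 19.7 and 21.9 TPM for the coding Ep300-201. Kmt2c-203 had 9.68 and 11.2 TPM, and Setd2-207 had 7.69 and 7 TPM against 19.3 and 24.5 TPM for Setd2-201. For 13 members, Kdm6b, Ezh1, Kmt2a and Kmt2d among them, the annotation holds no retained intron model, so their share is 0 by construction. Sirt1 was led by the decay target Sirt1-205, at 4.55 and 9.56 TPM in replicates 1 and 2, and the coding Sirt1-201 stood at 3.71 and 0.29 TPM. Decay targets held 48.5% of Sirt1 TPM and retained intron transcripts 23.2%. In the second quantification these shares were 24.8% and 57.9%.

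The second deposited quantification of the same libraries gave most members lower levels. It was lower for 51 of 61, with a median log2 ratio of second over first of -0.39 against -0.13 for all genes. Protein-coding genes held 30.2% ± 1.04 of TPM in the first and 21.4% ± 4.88 in the second, and once both were rescaled to protein-coding genes the members' median ratio was 0.10. More than 2-fold apart was 1 member, Sirt5, against 28.5% of 19574 genes. Sirt5 had 5.42 and 5.19 TPM in the first and 9.27 and 14.8 TPM in the second, where the coding model Sirt5-209 carried 6.19 and 10.3 TPM. After the rescaling Kdm3b passed 2-fold as well, with 56.6 and 37.6 TPM in the second as deposited. Of this, 42.3 and 15.5 TPM lay on Kdm3b-203, a processed transcript of 42 bases that is listed at 0 in the first.

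**Figure D5:**
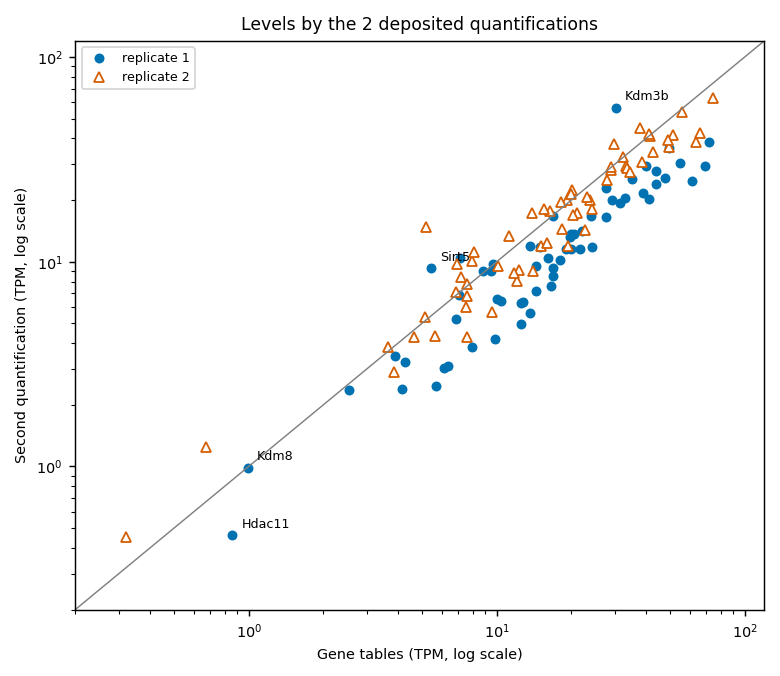
Level of each enzyme gene by the gene tables (horizontal, TPM, log axis) and by the second quantification summed per gene (vertical, TPM, log axis) in replicate 1 (filled circles) and replicate 2 (open triangles), with a line of equality. Most points lie below the line, and Kdm3b and Sirt5 lie above it.

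The proteins that work with these enzymes were measured in the same libraries, from lists set by function. In the Polycomb PRC2 list, the complex of Ezh1 and Ezh2, 8 of 10 matched genes were detected with a median of 13.4 ± 0.746 TPM, from Eed at 37.5 ± 1.88 and Aebp2 at 24.9 ± 0.346 down to Epop at 0.195 ± 0.00707 TPM. In the COMPASS list, the H3K4 methyltransferase complexes, 11 of 12 were detected with a median of 14.0 ± 0.972 TPM, led by Ncoa6 and Psip1, with Pagr1a lowest. Of the acetyltransferase complex genes, 24 of 24 were detected (median 12.9 ± 1.17 TPM), led by Supt20 at 59.8 ± 5.30 and Trrap at 53.8 ± 2.82 TPM, with Jade3 lowest.

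Deacetylase complexes had 22 of 23 genes detected and a median of 18.7 ± 0.884 TPM. The corepressor Ncor1, which activates Hdac3, stood at 98.6 and 121.7 TPM, above every enzyme gene, and the NuRD remodeller Chd4 at 62.6 and 55.2 TPM. Sap30, a subunit of the Sin3 complex, was the 1 gene of these lists with a mean of at least 50 counts that lay more than 2-fold apart between libraries, with 5.75 and 2.44 TPM, and Rcor2 was lowest. Other writers and erasers outside the symbol rule had 25 of 27 detected, led by Jmjd1c at 99.2 ± 4.27 and Nsd1 at 66.6 ± 9.72 TPM, with Hr lowest. Acetyl-lysine readers had 6 of 7 detected, led by Brd2 at 99.8 ± 4.09 and Baz2b at 71.7 ± 5.10 TPM, with the testis gene Brdt lowest. In each of these 6 lists more genes were higher in replicate 2 than in replicate 1.

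The promoters of the enzyme genes were rich in CG pairs. RefSeq windows on GRCm38.p6, from 250 bases before to 50 after a start, were given for 49 members as 70 windows. A ratio of observed to expected CG of at least 0.6 was found in 53 windows (75.7%), against 46.1% of 20150 windows of protein-coding genes. The motif CG itself, the same on both strands, occurred in 94.3% of member windows and in 93.7% of protein-coding ones.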

How the data were processed

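The 2 libraries of 1 group were used. Per the file headers and labels, the authors deposited gene and transcript tables on mm10 with GENCODE M21, with expected counts, TPM and interval bounds (a signal that is never negative, not used for results), and a second transcript quantification with its own TPM. The programs, and whether strand was used, are not given in the sources used here. Levels of 22 of 61 members, which share exonic bases with a gene on the other strand, are therefore uncertain. Entries without an annotated gene held 1.18% and 0.405% of the deposited expected counts in replicates 1 and 2 and were left out. Expected counts were rounded, then scaled over all genes with edgeR 4.0.16 TMM (R 4.3.3). DESeq2 1.42.0 size factors were an alternative. For ratios 1 was added to scaled counts, and genes averaging under 50 were left out. Scripts used Python 3.11.15, numpy 2.4.6, pandas 2.3.3 and scipy 1.17.1, and were tested on simulated data. With 1 group, no p-value was computed.

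Of the symbols that fit the family names, 3 were left out by the rule. Every member is named with its level. Values in both libraries with counts are given for the 3 highest and 2 lowest of each class, members under 1 TPM, the 5 farthest apart between libraries each way, the 8 with the highest retained intron share, members 2-fold apart between quantifications, and 11 enzymes always named (Kdm6b, Kdm1a, Ezh1, Ezh2, Hdac1, Hdac2, Hdac3, Ep300, Crebbp, Kmt2d, Sirt1). The symbol rule uses no values, but the members and lists were chosen with earlier results of these data known. In the lists, Ezhip and Mideas matched no symbol. The transcript leaders, numbers of boundaries, sequences printed, promoter ratio and the transcripts named were chosen after values were seen.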

Additional observations from a re-analysis of the deposited data

How the results depend on the processing

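The members' median level depended on the unit: 13.8 TPM by the second quantification, 58.4 TPM rescaled to protein-coding genes and 35.8 TPM when mitochondrial genes and the 10 highest genes were removed before rescaling. Without the count filter 1 member was more than 2-fold apart between libraries, Hdac11. The retained intron share was 14.5% by expected counts and 30.1% as the median of single members. More than 2-fold apart between quantifications were 2 members with a pseudocount of 0.1 TPM, 2 when both were rescaled (Sirt5 and Kdm3b), and 1 to 6 with each library alone. Members with most of their TPM in retained intron transcripts numbered 17 in the second quantification, an alternative added after seeing the data, as were those for retained intron leaders, which gave 10 by expected counts, 13 in the second quantification and 12 to 14 with each library alone. Over all settings tried, 55 to 61 members were detected, and the median difference between libraries ran from -0.16 to -0.06. At the -0.06 setting, on TPM, the median of all genes was 0.09. The member median minus the median of all genes ran from -0.16 to -0.12 over the settings. Posterior mean TPM moved Kdm4b, Hdac11 and Setd4 by over 1.5 times, Setd4 to 6.83 TPM from 4.52. Leaving out a library leaves no difference between libraries to compute. Precision is limited by 2 libraries, by low counts for Hdac11 and Kdm8, and by how reads are shared among transcript models.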
